A study of Homo sapiens with 12 samples.

Results

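The genes described here are 33 genes of sterol and fatty acid synthesis, chosen by symbol out of the 60660 genes quantified in each library. All 33 passed the filter on low counts in each of the 4 comparisons. The RNA came from LNCaP and 22Rv1 cells, 2 established human prostate cancer (PCa) lines, each transfected with NC-mimic, a control oligonucleotide, or with a mimic of piR-4447944 (piR-hsa-4447944), a PIWI-interacting RNA. All 12 libraries, 3 for each of the 4 combinations of line and oligonucleotide, came from cells grown with fetal bovine serum at 10% that had been charcoal-stripped (CS-FBS) and so depleted of androgens, so every control carries the androgen deprivation too. The study asked which messenger RNAs respond to piR-4447944 in PCa cells under androgen deprivation. Each line is a single cell line, and nothing in the labels says that the replicates were separate cultures, so p-values here measure only the spread between these libraries.

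Cells make cholesterol from acetyl-CoA by the mevalonate pathway, which ends in farnesyl diphosphate, and then by squalene and a series of sterol intermediates. Fatty acid synthesis draws on the same acetyl-CoA pool. The transcription factors SREBP-1 and SREBP-2, encoded by SREBF1 and SREBF2, switch on both pathways. They are held in the endoplasmic reticulum by SCAP and INSIG proteins when sterols are plentiful and are cut free when sterols run low. When oxysterols accumulate, the nuclear receptor LXR turns on genes that lower cell cholesterol, among them ABCA1, ABCG1 and MYLIP. Charcoal treatment takes lipophilic compounds out of serum, and androgens are known to raise lipid synthesis in PCa cells. The genes were ordered by role, with 6 genes of the mevalonate pathway, 11 of the squalene and sterol steps, 5 of sterol sensing, SREBP control and sterol transfer, 8 of fatty acid synthesis, and 3 LXR-induced genes. The last label stands below for ABCA1, ABCG1 and MYLIP only and does not cover every gene that LXR can induce.

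Sequence around the start sites was looked up because SREBPs bind sterol regulatory elements, usually next to sites for the CCAAT-binding factor NF-Y. RefSeq windows (GRCh38.p14) of 300 bases, 250 before and 50 after the start site, were found for 29 of the 33 genes and not used for SQLE, FDFT1, FASN and ABCG1. Both strands were searched for TCACNCCAC, a form of the sterol regulatory element, for CCAAT and for the E-box CANNTG, and overlapping matches of different patterns were counted apart. The 29 genes had 39 windows, and a gene counted as holding a pattern if any of its windows matched. Of the 29 genes, 22 held CCAAT (75.9%), against 39.7% of the 27305 genes with a window. Those 27305 genes were not limited to expressed ones, and their number of windows per gene was not compared. The E-box was found in 21 of the 29 (72.4%), against 73.1% of all genes. TCACNCCAC was found in 1 of the 29, SREBF2, against 1.39% of all genes. By role, CCAAT was present in 5 of 6 mevalonate genes (FDPS, HMGCS1, IDI1, MVD and MVK), in 8 of 9 sterol genes with a window, in INSIG1, SREBF2 and STARD4 among the 5 control genes, in 5 of 7 fatty acid genes and in MYLIP among the LXR-induced genes. A match describes letters in a window and is not a measured binding site. The stretches of 30 bases below show the SREBF2 element and the CCAAT match nearest to the start site in the 3 genes whose level differed most upward between the lines, read 5′ to 3′ on the strand of the gene, with the match in capitals (ATTGG is CCAAT on the other strand).
SREBF2, chr22:41832962-41832991, plus strand: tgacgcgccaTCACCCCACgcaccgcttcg
HMGCS1, chr5:43313495-43313524, minus strand: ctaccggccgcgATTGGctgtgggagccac
MVD, chr16:88663159-88663188, minus strand: ggctcgcacgggCCAATcctgtggtagcgc
INSIG1, chr7:155297696-155297725, plus strand: cgccggcctcccATTGGttgcggccgcctc

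Libraries held 12161091 (22Rv1 NC-mimic replicate 3) to 22179601 expected counts, which are the fractional read counts per gene estimated by RSEM. Levels are given below as CPM, TMM-scaled counts divided by the library total, to compare libraries, and as TPM, the RSEM estimate of transcript share, to compare genes, since only TPM is divided by transcript length. All 10 luminal prostate markers were above 0 TPM in every library, with a summed level of 5133 to 5586 TPM in LNCaP and 2119 to 2711 TPM in 22Rv1. Of the 12 markers of other cell types, only COL1A1 exceeded 20 TPM in any library; the basal, endothelial and leukocyte markers summed to at most 1.89 TPM per cell type.

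In LNCaP with NC-mimic, FADS2, SREBF1, FASN and TM7SF2 were the most abundant of the 33. FADS2, the delta-6 desaturase of polyunsaturated fatty acids, stood at 235 ± 4.16 TPM (SD, n = 3), SREBF1 at 231.9 ± 22.1 TPM and FASN, the fatty acid synthase, at 217.4 ± 10.3 TPM, and these neighbours in the order differed by less than the SREBF1 spread. TM7SF2, which encodes a sterol C14-reductase, followed at 207.9 ± 9.17 TPM. Squalene formation and squalene use were represented unequally, with 134.3 ± 11.1 TPM for FDFT1, the squalene synthase, and 19.2 ± 1.27 TPM for SQLE, the squalene epoxidase. Apart from ELOVL6, whose TPM was 9.71, 8.36 and 105 in replicates 1, 2 and 3, the lowest were MVD at 15 ± 1.76 TPM, STARD4 at 11.5 ± 0.876 TPM, MYLIP at 11.4 ± 1.19 TPM and ABCA1 at 0.967 ± 0.225 TPM, and STARD4 and MYLIP did not differ beyond their spread.

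The LNCaP libraries were alike across these genes, whereas 22Rv1 replicate 3 stood apart from replicates 1 and 2 with either oligonucleotide. The median over the 33 genes of the log2 CPM, taken relative to the mean of the LNCaP NC-mimic libraries, lay between −0.05 and 0.01 in the 6 LNCaP libraries. In 22Rv1 it was 1.22, 1.16 and 0.14 in NC-mimic replicates 1, 2 and 3, and 1.05, 1.15 and −0.35 in piR-4447944 mimic replicates 1, 2 and 3. Both replicate 3 libraries were therefore the low ones of their group, and the counts for 22Rv1 below are given with and without them.

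**Figure D1:**
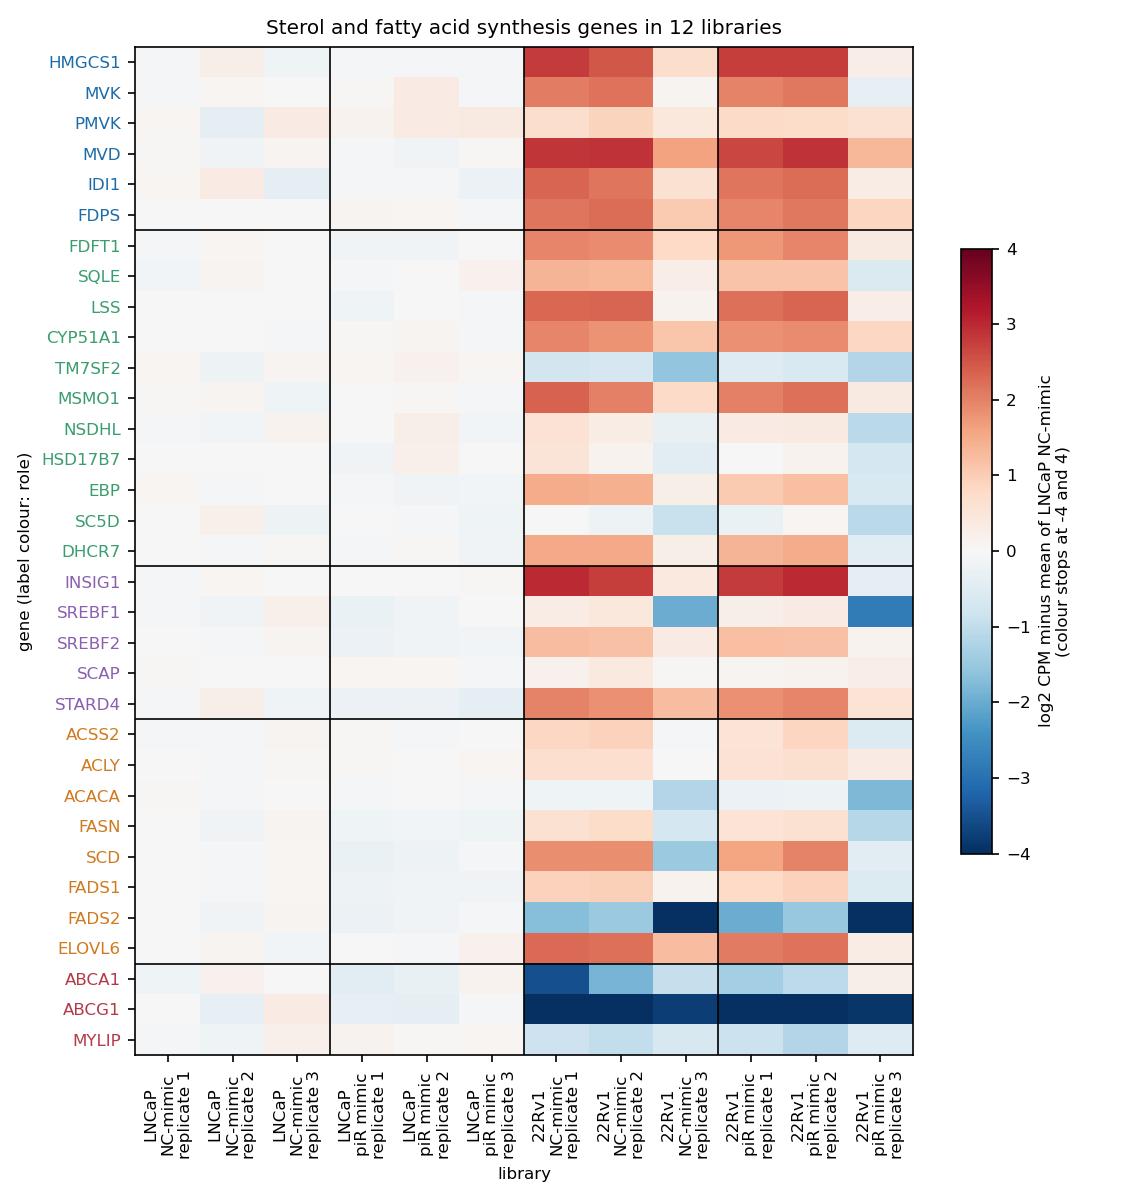
Colour gives the log2 CPM of each of the 33 genes (rows, grouped by role) in each of the 12 libraries (columns), minus the mean of the 3 LNCaP NC-mimic libraries. The LNCaP columns are nearly blank, 22Rv1 replicates 1 and 2 are red in most sterol genes, and both 22Rv1 replicate 3 columns are paler in those rows, with medians of 0.14 and −0.35.

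The difference of 22Rv1 replicate 3 from the mean of replicates 1 and 2 ran through most of the biosynthetic and control genes. It did not run through ABCA1, ABCG1 and MYLIP. With NC-mimic, 30 of 33 genes were lower in replicate 3, and 17 were lower by more than 1 on the log2 scale, against 6.83% of the 18720 genes that passed the filter over all libraries. With piR-4447944 mimic, 29 of 33 were lower and 24 were lower by more than 1, against 9.69% of all genes. In both replicate 3 libraries at once, 17 of 33 genes were lower by more than 1, against 2.05% of all genes. They comprised 5 of 6 mevalonate genes, 6 of 11 squalene and sterol genes, 2 of 5 control genes, 4 of 8 fatty acid genes and 0 of 3 LXR-induced genes. In LNCaP, 0 of 33 genes were lower by more than 1 in both replicate 3 libraries, against 0.235% of all genes. These are descriptions of single libraries with no test.

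SCD, the stearoyl-CoA desaturase (chr10:100347233-100364826), showed the widest gap with NC-mimic. Its level was 1641, 1621 and 161.2 CPM in 22Rv1 NC-mimic replicates 1, 2 and 3, and 1349, 1797 and 334.6 CPM in the corresponding piR-4447944 mimic libraries. Replicate 3 thus lay −3.34 and −2.22 from the mean of the other replicates on the log2 scale. INSIG1, which retains SCAP in the endoplasmic reticulum and is itself an SREBP target, was at 308.8, 264.1 and 51.5 CPM with NC-mimic and at 272.6, 310.5 and 30.4 CPM with the mimic, where its gap of −3.25 was the widest. SREBF1 was at 503.3, 551.3 and 105.3 CPM with NC-mimic and at 484.5, 517 and 59.4 CPM with the mimic. In each of these genes replicates 1 and 2 stayed close together and replicate 3 alone was low. FADS2 was at 137.4, 160.2 and 22.7 CPM with NC-mimic and at 112.5, 157.9 and 23.9 CPM with the mimic. LSS, the lanosterol synthase that closes the sterol rings, was at 282.3, 287.6 and 63.7 CPM with NC-mimic and at 265.8, 288.4 and 69.4 CPM with the mimic.

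Some genes of the same pathways differed less between the 22Rv1 replicates. PMVK, the phosphomevalonate kinase, differed in replicate 3 by −0.38 and −0.13 on the log2 scale with NC-mimic and mimic, SCAP by −0.23 and 0.14, and ACLY, which makes cytosolic acetyl-CoA from citrate, by −0.65 and −0.27. SREBF2 differed by −0.85 and −1.04, less than SREBF1 at −2.32 and −3.07. The medians over the 33 genes were −1.01 and −1.43. ABCA1, the cholesterol exporter, was higher in replicate 3 by 1.77 and 1.42, ABCG1, another sterol exporter, by 0.76 and 0.53, and MYLIP, a ubiquitin ligase for lipoprotein receptors, by 0.24 and 0.51. ABCA1 rests on few reads, at 0.456 to 7.58 CPM in 22Rv1. Between replicates 2 and 1, differences in 22Rv1 ranged from −0.37 to 0.49 over both oligonucleotides, except for ABCA1 at 1.65 with NC-mimic. Among 32 other lipid genes measured beside these, 0 were lower by more than 1 in both replicate 3 libraries. The share of all genes was 2.05%, so this count does not set them apart from other genes.

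The 2 replicate 3 libraries of 22Rv1 differed from each other in genes of the response to low oxygen. The mean of 11 low-oxygen genes lay 3.47 above replicates 1 and 2 on the log2 scale in the piR-4447944 mimic library, with 11 of 11 genes more than 1 higher, and 0.29 above in the NC-mimic library, with 1 of 11 genes more than 1 higher. Counts from the mitochondrial genome made up 2.23% of the piR-4447944 mimic replicate 3 library and 4.24% to 5.37% of the other 11. The median gap of the 33 genes from replicates 1 and 2 was −1.43 in the piR-4447944 mimic replicate 3 library and −1.01 in the NC-mimic one. The summed level of the 4 fibroblast markers was highest in replicate 3 in both lines. In 22Rv1 it was 10.2, 9.67 and 16.6 TPM in NC-mimic replicates 1, 2 and 3. In the corresponding piR-4447944 mimic libraries it was 7.43, 11.2 and 27.3 TPM. In LNCaP it was 31.25, 31.89 and 40.26 TPM with NC-mimic and 25.89, 28.85 and 44.34 TPM with the mimic. The part of the low-oxygen genes, of the fibroblast markers and of depth in the lower sterol genes was not tested.

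**Figure D2:**
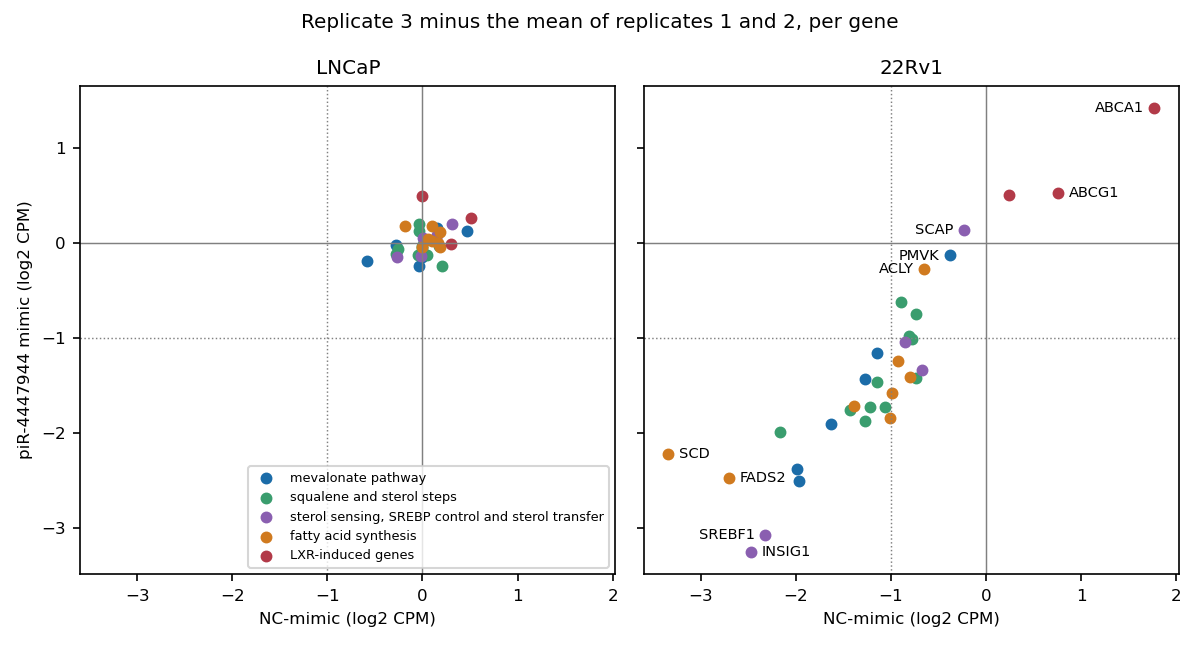
Each point is 1 of the 33 genes, placed by the log2 CPM of replicate 3 minus the mean of replicates 1 and 2 with NC-mimic (horizontal) and with piR-4447944 mimic (vertical), in LNCaP (left) and 22Rv1 (right). Dotted lines mark −1. The LNCaP points gather around 0, between −0.58 and 0.51, while 17 of the 22Rv1 points lie under −1 on both axes and the LXR-induced genes lie above 0.

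The lines were first compared with NC-mimic, as a measure of the resting level of the pathways in androgen-deprived medium. In 22Rv1, 20 of the 33 genes were higher than in LNCaP and 5 were lower at an adjusted p under 0.05 (edgeR quasi-likelihood test, Benjamini-Hochberg over 17497 genes), against 30.9% of all genes called higher and 27.5% called lower. The median log2 fold change was 0.95 over the 33 genes and 0.01 over all genes tested. Without 22Rv1 replicate 3, 26 genes were higher and 6 lower (33.7% and 32.5% of all genes) with a median of 1.18, and SC5D alone was not called. Since most genes separated these lines, a call by itself says little about any of the 33, and the direction and size are given with it. Bulk RNA does not tell a higher level per cell from a different mix of cells.

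All 6 mevalonate genes were called higher in 22Rv1, with a median log2 fold change of 1.86. HMGCS1, the cytosolic HMG-CoA synthase at the entry to the pathway (chr5:43287470-43313512), was at 65.8, 80.5 and 59.9 CPM in LNCaP and at 477.6, 382.5 and 110 CPM in 22Rv1, a log2 fold change of 2.23 ± 0.46 (SE; adjusted p = 0.00351). MVD, the mevalonate diphosphate decarboxylase (chr16:88651935-88663161), was at 15.1, 13.5 and 15.8 CPM in LNCaP and at 107.6, 110.3 and 45.1 CPM in 22Rv1 (2.56 ± 0.32, adjusted p = 0.000266). The groups did not overlap for either gene, although 22Rv1 replicate 3 lay nearest to LNCaP. FDPS, the farnesyl diphosphate synthase, was at 76.3 to 78.9 CPM in LNCaP and at 343.3, 365.7 and 161.1 CPM in 22Rv1, a log2 fold change of 1.89 ± 0.28 (adjusted p = 0.000582). IDI1, the isopentenyl diphosphate isomerase, and MVK, the mevalonate kinase, differed by 1.83 ± 0.40 (adjusted p = 0.00485) and 1.69 ± 0.45 (adjusted p = 0.0114). PMVK, which acts between MVK and MVD, differed least, at 0.65 on the log2 scale. FDPS overlaps exons of RUSC1-AS1 on the opposite strand, which held 7.75% to 13.5% of the FDPS count, and MVK shares 225 exonic bases with MMAB, a protein-coding gene on the opposite strand with 142% to 279% of the MVK count. Likewise CYP51A1 shares 108 exonic bases with AKAP9, at 122% to 258% of its count, and SREBF1 shares 556 with RAI1, at 16.5% to 169% of its count. Whether reads were counted by strand is not given in the sources used here.

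Of the 11 squalene and sterol genes, 7 were called higher in 22Rv1 and 1 lower. LSS differed by 1.88 ± 0.48 (adjusted p = 0.00938), from 55.9 to 57.9 CPM in LNCaP to 63.7 to 287.6 CPM in 22Rv1, so that its replicate 3 value lay just above the LNCaP range. MSMO1, the sterol C4-methyl oxidase, differed by 1.84 ± 0.35 (adjusted p = 0.00228) and CYP51A1, the lanosterol demethylase, by 1.65 ± 0.20 (adjusted p = 0.00023). FDFT1, the first enzyme committed to sterols, differed by 1.62 ± 0.27 (adjusted p = 0.00128). Smaller differences were found for DHCR7, a late-acting sterol reductase, by 1.18 ± 0.30 (adjusted p = 0.0089), for EBP, the sterol isomerase, by 1.15 ± 0.29 (adjusted p = 0.00897), and for SQLE by 1.05 ± 0.26 (adjusted p = 0.00834). TM7SF2 went the other way, at 166.3 to 205 CPM in LNCaP and 63.1 to 120.3 CPM in 22Rv1 (−0.95, adjusted p = 0.00707). NSDHL and HSD17B7, both of the C4-demethylation complex, and SC5D, the sterol desaturase, did not pass the test. Reads of HSD17B7 may be shared with its copy HSD17B7P2, which held 7.51% to 19.2% of the HSD17B7 count, and the other pseudogene copies held at most 0.703% of their gene's count.

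Among the control genes, INSIG1 and STARD4, which carries sterols between membranes, were far higher in 22Rv1 while the factors themselves differed less. INSIG1 (chr7:155297776-155310235) was at 36.9, 40.8 and 39 CPM in LNCaP and, as given above, at 51.5 to 308.8 CPM in 22Rv1 (2.41 ± 0.55, adjusted p = 0.00555). STARD4 was at 21.4 to 28.2 CPM in LNCaP and 56.9 to 95.5 CPM in 22Rv1 (1.70 ± 0.21, adjusted p = 0.000223), and its groups did not overlap. SREBF2 was higher by 0.95 (adjusted p = 0.00513), from 236.7 to 267.1 CPM in LNCaP to 316.7 to 581.9 CPM in 22Rv1. SREBF1, at 373 to 476.7 CPM in LNCaP and 105.3 to 551.3 CPM in 22Rv1, did not pass (−0.11, adjusted p = 0.858), and without 22Rv1 replicate 3 its difference had the other sign (0.33, adjusted p = 0.0143). The LNCaP range of SREBF1 thus lay between the low replicate 3 and the other 22Rv1 libraries. SCAP, the escort of the SREBPs, was at 109.9 to 145.8 CPM in all 6 libraries and passed only without replicate 3 (0.27, adjusted p = 0.0216).

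The fatty acid genes differed between the lines in both directions. ELOVL6, the elongase of long saturated chains, was at 33.8 to 39.3 CPM in LNCaP and 86.4 to 178.1 CPM in 22Rv1 (1.97 ± 0.25, adjusted p = 0.000318). FADS1, the delta-5 desaturase, ACSS2, an acetyl-CoA synthetase, and ACLY were also called higher, FADS1 by 0.71 (adjusted p = 0.0154). FADS2 (chr11:61792980-61867354), which neighbours FADS1 and shares 490 exonic bases with it on opposite strands, was lower, at 453.9, 409.7 and 488.2 CPM in LNCaP and 137.4, 160.2 and 22.7 CPM in 22Rv1 (−2.08 ± 0.57, adjusted p = 0.0134). The order of these desaturases differed too. In TPM, FADS2 exceeded FADS1 in each LNCaP library, at 188.2 to 239.3 against 39.2 to 59.1 TPM, whereas in 22Rv1 replicate 3 FADS1 exceeded FADS2, at 59.2 against 11.8 TPM with NC-mimic and 28.5 against 13.8 TPM with the mimic; in 22Rv1 replicates 1 and 2 they were nearer, at 71.8 to 96.5 TPM for FADS1 and 62.5 to 93.4 TPM for FADS2. SCD and FASN were not called with all libraries, at 1.33 (adjusted p = 0.121) and 0.33 (adjusted p = 0.401), and both were called higher without 22Rv1 replicate 3, at 1.84 (adjusted p = 1.53e-09) and 0.66 (adjusted p = 3.31e-05). ACACA, the acetyl-CoA carboxylase that supplies FASN, differed by −0.45 (adjusted p = 0.134), and by −0.19 without replicate 3 (adjusted p = 0.0428).

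All 3 LXR-induced genes were called lower in 22Rv1, opposite to most of the biosynthetic genes. ABCG1 (chr21:42199689-42297244) was at 45, 36.9 and 58.1 CPM in LNCaP and at 2, 1.75 and 3.26 CPM in 22Rv1, a log2 fold change of −4.36 ± 0.28 (adjusted p = 8.38e-06) and the widest difference of the 33 genes. MYLIP was at 21.9 to 28 CPM in LNCaP and 12.3 to 15.5 CPM in 22Rv1 (−0.83, adjusted p = 0.00255). ABCA1 was at 5.7, 7.39 and 6.45 CPM in LNCaP and at 0.456, 1.68 and 3.34 CPM in 22Rv1 (−1.89 ± 0.60, adjusted p = 0.0251). The ABCA1 call was lost, with log2 fold changes of −1.98 to −1.79, when any of LNCaP NC-mimic replicates 1, 2 or 3, or 22Rv1 NC-mimic replicate 2, was left out (adjusted p = 0.0553 to 0.0805), and it was −0.38 between the lines with piR-4447944 mimic (adjusted p = 0.525).

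The same contrast between the lines was repeated with the piR-4447944 mimic libraries. There, 15 of the 33 genes were higher in 22Rv1 and 4 were lower (28.2% and 24.2% of all genes), with a median log2 fold change of 0.72. Without 22Rv1 replicate 3, which was left out here after the data had been seen, 23 were higher and 6 lower (35.4% and 34% of all genes) with a median of 1.1. HMGCS1 and INSIG1 then differed by 2.83 and 2.89 (adjusted p = 3.91e-12 and 2.48e-11), and ABCG1 by −4.2 (adjusted p = 2.3e-09).

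Other genes of lipid metabolism were called in both directions between the lines. Of 34 genes fixed as neighbours of these pathways, 32 were tested with NC-mimic, and 9 were called higher and 13 lower in 22Rv1, against 30.9% and 27.5% of all genes (12 and 15 without replicate 3, against 33.7% and 32.5%). INSIG2, the second INSIG gene, was lower at 41.3 to 45 CPM in LNCaP and 9.84 to 13.4 CPM in 22Rv1 (−1.87 ± 0.15, adjusted p = 2.63e-05), in contrast to INSIG1. SCD5, the second stearoyl-CoA desaturase, was lower by a log2 fold change of −5.32 ± 0.50 (adjusted p = 5.68e-05), with 73.6 to 80.8 CPM in LNCaP and 0.729 to 4.32 CPM in 22Rv1. ME1, the malic enzyme that yields NADPH, and ACSL1, an acyl-CoA synthetase, each differed by −2.17 (adjusted p = 0.0014 and 0.000167). SOAT1, which esterifies cholesterol, was higher by 1.28 ± 0.12 (adjusted p = 6.7e-05), and SLC25A1, the mitochondrial citrate carrier, by 0.66 (adjusted p = 0.0174). The LXR genes NR1H3 and NR1H2 did not pass, at −0.07 ± 0.18 (adjusted p = 0.76) and −0.08 ± 0.18 (adjusted p = 0.722).

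The effect of the piR-4447944 mimic was then compared with NC-mimic within each line. In LNCaP, 0 of the 33 genes passed at an adjusted p under 0.05, as did 0% of the 16244 genes tested (433 genes at an unadjusted p under 0.05; DESeq2 called 2 genes), and the smallest adjusted p of the 33 was 0.999. At an unadjusted p under 0.05, 5 of the 33 were lower with the mimic and 0 higher, against 1.13% of all genes lower. The 20 genes with a lower and 13 with a higher estimate had a median log2 fold change of −0.06, and standard errors ran from 0.06 to 0.20.

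The 5 genes below the unadjusted threshold in LNCaP were the fatty acid synthesis genes SCD, FADS1 and FASN, the factor SREBF2 and the sterol carrier STARD4. STARD4 was at 23.5, 28.2 and 21.4 CPM with NC-mimic and 20.3, 20.6 and 18.4 CPM with the mimic, a log2 fold change of −0.31 ± 0.12 (edgeR unadjusted p = 0.0234, adjusted p = 0.999). SCD was at 452.3, 429.4 and 473.1 CPM against 372.1, 390.2 and 432 CPM (−0.18 ± 0.07, unadjusted p = 0.0198). SREBF2 was at 246.3, 236.7 and 267.1 CPM against 210.4, 228.4 and 233.9 CPM (−0.16 ± 0.07, unadjusted p = 0.0389). The groups did not overlap for STARD4 and SREBF2, and overlapped for SCD by 1 library on each side. FADS1 was at 108.4 to 116.9 CPM against 97.2 to 102.2 CPM, also without overlap (−0.16 ± 0.07, unadjusted p = 0.0306). FASN was at 1166, 1052 and 1251 CPM against 1021, 1066 and 1017 CPM (−0.16 ± 0.07, unadjusted p = 0.0302), with 1 library of each group in the range of the other. In all, 3 of 33 genes were lower in every mimic library than in every NC-mimic library, against 3.74% of all genes. STARD4 alone was also lower by more than 0.2 on the log2 scale in edgeR, against 0.843% of all genes lower by both cut-offs. With DESeq2 size factors in edgeR, 1 of the 33 genes passed both cut-offs in either direction, against 2.2% of all genes. These cut-offs were used in the study on shrunken DESeq2 changes, and with such shrinkage STARD4 was at −0.09 and 0 of the 33 genes were beyond 0.2 with an unadjusted p under 0.05, against 0.00688% of all genes. The exact permutation test of 3 against 3 libraries cannot go below p = 0.1.

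The number of genes under the unadjusted threshold varied with the libraries fitted. Without LNCaP NC-mimic replicate 1, 2 or 3 it was 1, 7 and 4 of the 33 (1.76%, 2.85% and 7.53% of all genes, either direction). Without piR-4447944 mimic replicate 1, 2 or 3 it was 1, 2 and 4 (2.48%, 2.26% and 3.1%). With all 12 libraries in 1 fit it was 0, against 0.903% of all genes. Leaving out a library also lowers the power of the test, so a lost call does not by itself show dependence on that library. STARD4 also shares 124 exonic bases with STARD4-AS1 on the opposite strand, which held 5.48% to 62.5% of the STARD4 count over the 12 libraries.

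In 22Rv1, 0 of the 33 genes passed at an adjusted p under 0.05 (0% of 16898 genes; DESeq2 called 4) and 0 at an unadjusted p under 0.05, against 1.48% of all genes. The estimates were lower for 26 genes and higher for 7, with a median of −0.12, and their standard errors of 0.13 to 0.87 were wider than in LNCaP. The direction of that median depended on the libraries fitted. It was −0.44 without NC-mimic replicate 3 and 0.22 without piR-4447944 mimic replicate 3. Without NC-mimic replicate 1 or 2 it was 0.04. The spread in 22Rv1 does not allow small effects to be seen or dismissed, since SCD at 0.03 and INSIG1 at −0.02 on the log2 scale carried standard errors of 0.86 and 0.87.

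Deviations of same-numbered 22Rv1 libraries from their group means were correlated, so the comparison was also made with the replicate number as a block. Those means include the outlying replicate 3, and no correlation was computed between differently numbered libraries. Pairing of replicates 1 and 2 is therefore not shown. Then 2 of 33 genes had an unadjusted p under 0.05, against 2.49% of all genes: EBP at −0.51 ± 0.15 (unadjusted p = 0.0152, adjusted p = 0.869) and ABCA1 at 1.43 ± 0.47 (unadjusted p = 0.021, adjusted p = 0.869). EBP was at 132.9, 128.7 and 56.2 CPM with NC-mimic and 98.9, 108.7 and 31.2 CPM with the mimic. ABCA1 was at 0.456, 1.68 and 3.34 CPM with NC-mimic and at 2.48, 3.07 and 7.58 CPM with the mimic. With both replicate 3 libraries left out, EBP alone had an unadjusted p under 0.05 (−0.33 ± 0.09, unadjusted p = 0.00311, adjusted p = 0.9), against 4.93% of all genes. None of these passed the adjustment over all genes.

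The mimic effect was not shown to differ between the lines. In the test of the difference, 0 of the 33 genes had an unadjusted p under 0.05, against 3.26% of the 18720 genes tested, and the median difference (22Rv1 minus LNCaP) was −0.04 on the log2 scale, with standard errors of 0.14 to 0.97. The smallest unadjusted p was 0.0909, for ABCA1 at 1.49 ± 0.81. With the replicate block, 2 of 33 passed that threshold, against 4.55% of all genes, namely ABCA1 at 1.61 ± 0.46 (unadjusted p = 0.00701) and EBP at −0.40 ± 0.17 (unadjusted p = 0.0433), both at an adjusted p of 0.886. Without 22Rv1 replicate 3, ABCA1 alone did (unadjusted p = 0.0102), against 6.21% of all genes. Among the 32 neighbouring lipid genes tested in LNCaP, LPIN1 alone had an unadjusted p under 0.05 with the mimic, against 2.67% of all genes. Its log2 fold change was −0.19 ± 0.08 (edgeR unadjusted p = 0.03, adjusted p = 0.999). Of 31 tested in 22Rv1 there were 0, against 1.48% of all genes.

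The unit of the values mattered for ELOVL6. Its TPM was 9.71, 8.36 and 105 in LNCaP NC-mimic replicates 1, 2 and 3 and 38.6, 33.8 and 265.6 in the 22Rv1 NC-mimic libraries, while its CPM in the same libraries was 37.3, 39.3 and 33.8 and 178.1, 170.3 and 86.4. The effective length that RSEM assigned is a transcript length corrected for fragment length and averaged by isoform use. It was 408 bases in LNCaP NC-mimic replicate 3 and 399 bases in 22Rv1 NC-mimic replicate 3, against 5068 to 6314 bases in the other 10 libraries. Dividing by the shorter length raised the TPM in those 2 libraries, where the counts showed no such rise. On log2(TPM + 1) by limma, the ELOVL6 difference between the lines was 1.7 and was not called (adjusted p = 0.22), although the count-based difference was 1.97.

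**Figure D3:**
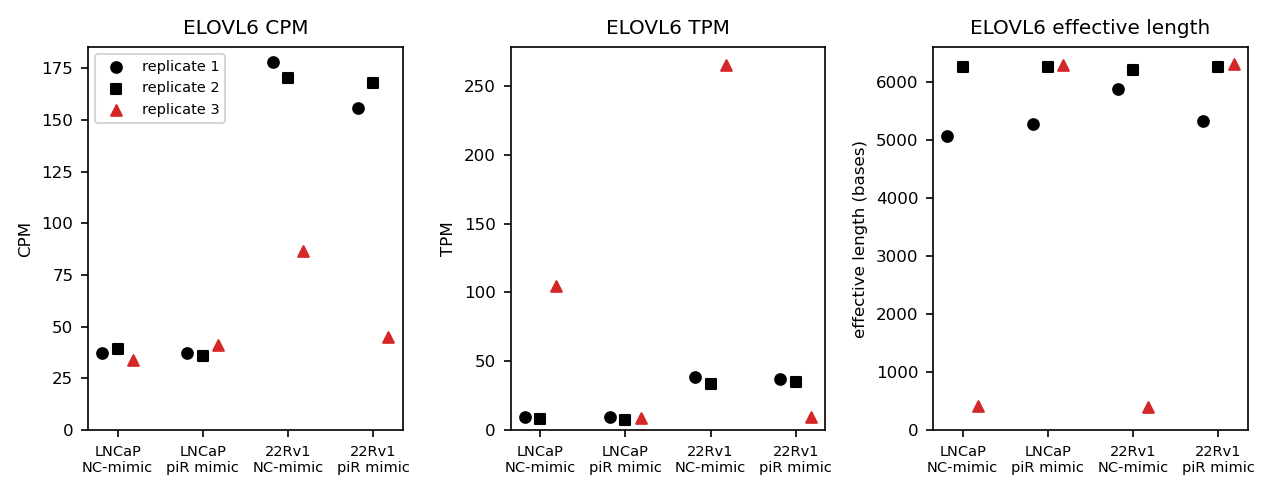
ELOVL6 in each of the 12 libraries as CPM (left), TPM (middle) and effective length in bases (right), by group, with replicate 3 as red triangles. The NC-mimic replicate 3 points, at 105 and 265.6 TPM, stand above the rest in TPM and at the bottom in effective length, and not above the rest in CPM.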

How the data were processed

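Messenger RNA libraries of LNCaP and 22Rv1 cells were grouped by the labels into 4 groups of 3. STAR 2.7.1a alignments to hg38 were quantified per gene by the authors with RSEM 1.3.0, and the deposited tables hold expected counts and TPM for each library; annotation release and strand setting are not given in the sources used here. The table joining the TPM of all libraries repeats these values and was not used.

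Expected counts were rounded and fitted in R 4.3.3 with edgeR 4.0.16 (TMM, filterByExpr, glmQLFit and glmQLFTest), with Benjamini-Hochberg adjustment over all genes of a fit; a call means adjusted p under 0.05, and standard errors were derived from the F statistics. The study's cut-offs (unadjusted p under 0.05 with a log2 change beyond 0.2 either way), which the authors set on DESeq2 changes shrunken by lfcShrink, were set beside it on the unshrunken edgeR estimates and on shrunken DESeq2 changes. Each line was fitted alone, the lines on their NC-mimic libraries, and the difference of effects on all 12. DESeq2 1.42.0 and limma 3.58.1 on log2(TPM + 1) or log2(TPM + 0.1), with TPM of at least 1 in 3 libraries, were alternatives. Log2 CPM used a prior count of 2. The scripts were tested on simulated data. Depth differs less than 2-fold between libraries, and p-values cover the spread between libraries.

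The 33 genes and the lists were chosen with earlier results of these data known. All 33 are described by level; fold changes with errors are given for those with an unadjusted p under 0.05 in a mimic comparison, or, between the lines, a call with a log2 change beyond 1 either way, and other values where a sentence turns on them. Replicate numbers were taken to pair libraries where each correlation of deviations from the group means, across genes, exceeded 0.1. In 22Rv1 these were 0.198, 0.167 and 0.355. In LNCaP they were 0.0211, 0.00504 and 0.189, and between the NC-mimic lines 0.00769, 0.0236 and 0.104. No correlation was computed between differently numbered libraries, so this rule does not tell pairing from a replicate 3 that differs alike in both groups. Gene positions are from GENCODE v44 on hg38, and no 2 libraries were identical.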

Additional observations from a re-analysis of the deposited data

How the results depend on the processing

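Between the lines, the direction of the median and the counts of the 33 genes higher and lower held within 1.5 times of 20 and 5 under all alternatives tried except limma on log2(TPM + 1) without a filter, which called 7 higher. Leaving out 1 library gave 8453 to 12117 called genes, 16 to 26 of the 33 higher, 4 to 6 lower and medians of 0.8 to 1.18; the lowest counts were without LNCaP NC-mimic replicate 1 and the highest without 22Rv1 NC-mimic replicate 3. For the mimic in LNCaP, genes at an adjusted p under 0.05 numbered 46 without a low-count filter, 2 by DESeq2 and 1 in each limma fit on TPM. The 33 held 9 genes at an unadjusted p under 0.05 without that filter (3.44% of all genes) and 0 with all 12 libraries in 1 fit (0.903%); the median was −0.02 by DESeq2 and −0.01 in the 3 limma fits. Leaving out 1 LNCaP library gave 0 to 2 called genes, 1 to 7 of the 33 and medians of −0.07 to 0. For the mimic in 22Rv1, called genes numbered 4 by DESeq2, 2 and 3 by limma on log2(TPM + 1) and log2(TPM + 0.1), and 4 without replicate 3, with 1 of the 33 at an unadjusted p under 0.05 in that last fit (4.93% of all genes) and 1 with all 12 libraries in 1 fit (6.6%). Leaving out 1 library of 22Rv1 gave 0 to 0 called genes, 0 to 1 of the 33 and medians of −0.44 to 0.22. In the difference between the lines, 1 of the 33 had an unadjusted p under 0.05 without a filter (3.17% of all genes) and 1 without replicate 3 (6.21%). The cause of these shifts was not tested.

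With the replicate number as a block, the 33 held 9 genes at an unadjusted p under 0.05 in LNCaP, whose numbers do not pair (3.79% of all genes), namely PMVK higher and SREBF1, SREBF2, STARD4, FASN, SCD, FADS1, FADS2 and ABCG1 lower, 2 in 22Rv1 (2.49%) and 2 in the difference between the lines (4.55%); between the lines 19 were called higher and 5 lower. In 22Rv1 the block raised the genes at an unadjusted p under 0.05 from 250 to 420. Of the 18 genes called between the lines with a log2 change beyond 1 and the 5 under the unadjusted threshold in LNCaP, none changed direction under the alternatives run; 280 values of the 18 kept the threshold and 24 lost it, and 43 values of the 5 kept and 27 lost it. Among genes not called between the lines, SREBF1 turned from −0.11 to 0.33 without 22Rv1 replicate 3, and NSDHL and HSD17B7 were at −0.03 and −0.18 with the mimic libraries, against 0.23 and 0.13 with NC-mimic.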
